A study of Homo sapiens with 8 samples.

Results

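A set of 8 genes at the core of phosphoinositide 3-kinase (PI3K), AKT and mTOR signalling were followed in RD18 cells after transfection of 2 microRNAs: PIK3CA, PIK3R1, AKT1, AKT2, MTOR, RICTOR, TSC1 and TSC2. They were chosen by symbol, all 8 were found among the 22808 symbols of the count table, and all 8 passed the filter on low counts. RD18 is a human fusion-negative rhabdomyosarcoma cell line, a soft-tissue tumour line with skeletal muscle traits. Vehicle cells received the transfection reagent lipofectamine alone, and treated cells received miR-449a and miR-340-5p. Each group has 4 libraries, made from RNA at 60 h. All libraries come from this 1 line and carry no other labelled allele or agent. No control RNA is named for the vehicle cells, so the microRNA pair and the presence of transfected RNA cannot be told apart. No label says that the replicates were separate cultures, so the tests see only library-to-library spread, which may be technical.

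PI3K is a lipid kinase that converts the membrane lipid PIP2 to PIP3 downstream of growth factor receptors. PIP3 recruits the kinase AKT, which is activated by the kinase PDK1 and by mTOR complex 2. AKT inhibits the TSC complex, which otherwise holds back the small GTPase RHEB and so mTOR complex 1, the complex that drives protein synthesis and restrains autophagy. In muscle cells the pathway carries insulin and IGF signals for growth, and the FOXO transcription factors are switched off by AKT. The counts measure mRNA, not protein or kinase activity.

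Library totals ran from 2567737 to 5569342 counts, and each of the 8 genes had between 41 and 1211 counts in a library. Values are given as CPM (counts scaled by library depth after TMM scaling, which aligns the bulk of genes between libraries). The muscle lineage markers stood at unlike levels. The mean of MYOD1 was 204 CPM without and 108 CPM with the microRNAs. Means of the desmin gene DES were 108 and 67.7 CPM, and those of MEF2C 123 and 49.4 CPM. MYOG went from 10.4 to 0.646 CPM and PAX7 from 9.94 to 5.54 CPM. CHRNG was low at 1.68 and 1.41 CPM, and MYF6 had 1 count in all vehicle and 2 in all treated libraries. The summed level of 7 muscle markers in the table ran from 429 to 477 CPM in vehicle and from 219 to 248 CPM in treated libraries. Markers of other cells also differed: 4 fibroblast markers summed to 105 to 120 CPM in vehicle and 159 to 188 CPM in treated libraries, with COL1A1 alone at means of 97.6 and 168 CPM, and 4 epithelial markers to 38.3 to 49.0 and 69.2 to 80.9 CPM, nearly all from KRT8 and KRT18. The other 3 fibroblast markers had lower means in treated cells: COL1A2 had means of 3.90 (vehicle) and 3.08 (treated) CPM, LUM of 7.55 and 0.300, and DCN of 3.20 and 0.602. CDH1 had no count in vehicle libraries, and 2 endothelial markers summed to at most 0.674 and 1.29 CPM. The part of these markers in the results was not tested, and in bulk RNA fewer cells of a type and less RNA per cell cannot be told apart.

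The sequences of the transfected microRNAs are shown first, because the words they can pair with were then looked for in the genes. Capitals mark the seed, bases 2 to 8 from the 5′ end, in the mature sequences from RefSeq (GRCh38.p14).

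miR-449a: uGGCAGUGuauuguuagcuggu

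miR-340-5p: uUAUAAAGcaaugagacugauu

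The seed of miR-449a pairs with the 7-base word CACTGCC and that of miR-340-5p with CTTTATA. Both were searched, on the transcript strand only, in each gene's longest 3′ UTR (GENCODE 29, GRCh38). Among 10817 tested genes with a 3′ UTR of at least 50 bases, 17.9% held CACTGCC and 19.8% held CTTTATA. Of the 8 genes, AKT2 alone held the miR-449a word, while PIK3CA, RICTOR and TSC1 held the miR-340-5p word. PIK3CA held it 3 times, as 143 genes (1.32%) did at least 3 times. AKT1, MTOR, PIK3R1 and TSC2 held neither word. The 3′ UTRs searched had 5729 bases in PIK3CA, 4887 in TSC1, 4385 in RICTOR and 3555 in AKT2. Those without a word had 4220 in PIK3R1, 992 in AKT1, 950 in MTOR and 877 in TSC2. The median over the 10817 genes was 1459 bases, and the word counts were not adjusted for length. A match is a description of the sequence and does not show binding. The matches are printed with 11 bases on either side, 5′ to 3′ on the transcript strand and with the word in capitals.

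AKT2, chr19:40231752-40231758, minus strand: cctcccctagtCACTGCCctttagcctgg

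PIK3CA, chr3:179236040-179236046, plus strand: ttggaaaacaaCTTTATAaagagtgaaca

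PIK3CA, chr3:179237362-179237368, plus strand: cttctattctgCTTTATAttaaaagccca

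PIK3CA, chr3:179238108-179238114, plus strand: tgaattacattCTTTATAtccatcctgct

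RICTOR, chr5:38938511-38938517, minus strand: tgttttactttCTTTATAgaatatttaat

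TSC1, chr9:132894080-132894086, minus strand: cttttactcagCTTTATAacaaatgtggc

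The match in TSC1 and the first in PIK3CA are followed by an A, the 8-base form of the match. All 3 genes with the miR-340-5p word rose in treated cells, and the gene with the miR-449a word fell, as described next. Among all tested genes holding the miR-340-5p word, 34.995% were higher and 34.1% lower, and among those holding the miR-449a word 27.8% were higher and 41.2% lower.

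The comparison of treated with vehicle cells asks how these transcripts differed after transfection of the microRNA pair. TSC1, RICTOR, PIK3CA and TSC2 rose and AKT2 fell, whereas PIK3R1, AKT1 and MTOR did not pass the test (edgeR quasi-likelihood test, Benjamini-Hochberg adjusted p under 0.05 over 12366 tested genes). Of all tested genes 67.3% passed, 33.4% as higher and 34% as lower, so a count of 5 passing among 8 is near the background and the sizes carry the description. The middle 50% of tested genes lay between -0.58 and 0.56 on the log2 scale. TSC1, RICTOR, PIK3CA and AKT2 lay outside that range, and TSC2 lay inside it. Of the 12366 genes, 1352 had a larger absolute change than TSC1, 4902 than RICTOR, 4975 than PIK3CA, 5739 than AKT2 and 8009 than TSC2.

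**Figure D1:**
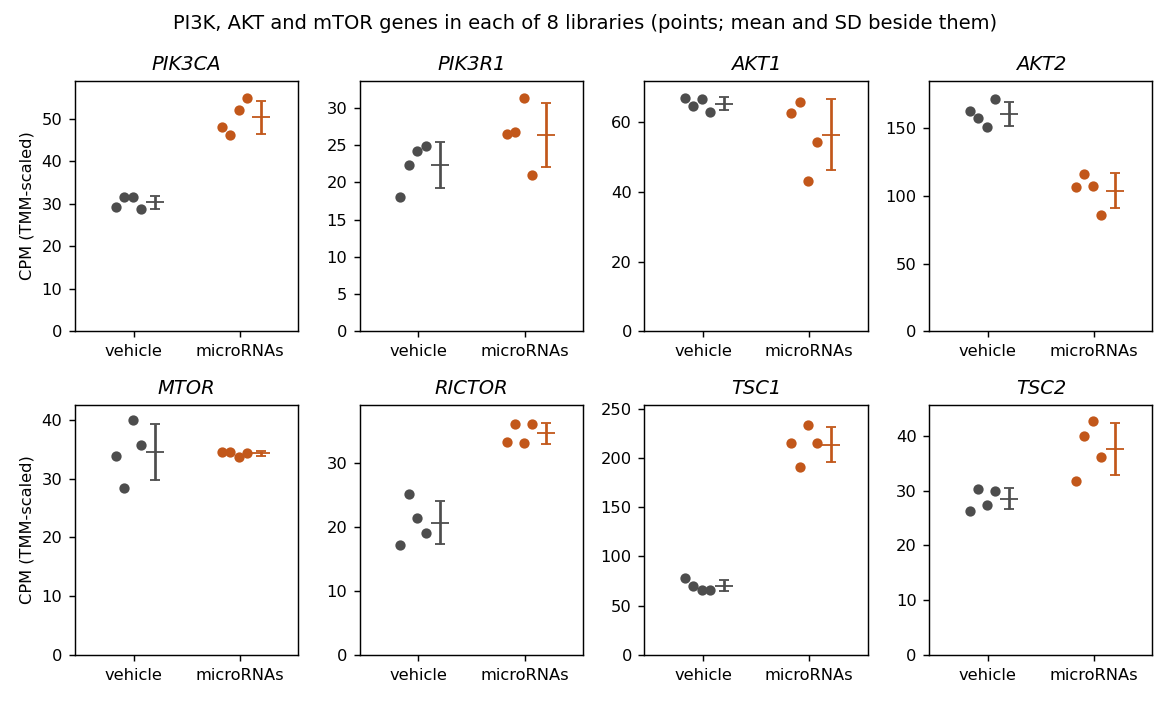
Level of each of the 8 genes (y axis, CPM after TMM scaling, from 0) in 4 vehicle libraries (grey) and 4 libraries treated with miR-449a and miR-340-5p (orange); points are libraries, with mean and SD beside them. TSC1 ran from 66.03 to 78.2 CPM in vehicle and from 191 to 233 CPM in treated libraries, and the groups also stood apart for PIK3CA, RICTOR, TSC2 and AKT2.

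PIK3CA encodes p110-alpha, a catalytic subunit of class I PI3K, on chromosome 3 (179148114 to 179240093, plus strand; GRCh38). It measured 29.3, 31.6, 31.7 and 28.6 CPM in vehicle replicates 1 to 4 and 48.1, 46.2, 52.0 and 54.7 CPM in treated replicates 1 to 4. Every treated library was above every vehicle library. Among all tested genes the groups stood apart in 58.9%, with 29.2% higher and 29.7% lower in treated cells. The rise was 1.64-fold (log2 fold change 0.71, SE 0.11, adjusted p = 1.27e-07). Exons of KCNMB3 on the opposite strand share 3403 bases with PIK3CA, and KCNMB3 had means of 0.409 (vehicle) and 1.053 (treated) CPM; its part in the PIK3CA value was not tested.

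PIK3R1 encodes p85-alpha, the regulatory subunit that stabilises and restrains the catalytic subunits, on chromosome 5 (68215720 to 68301821, plus strand). It measured 17.99, 22.3, 24.3 and 24.9 CPM in vehicle and 26.4, 26.8, 31.3 and 20.9 CPM in treated replicates 1 to 4. The groups overlapped through treated replicate 4. The log2 fold change was 0.22 with a 95% interval from -0.07 to 0.50 (adjusted p = 0.173). When libraries were scaled by their size alone, which moved the median of all genes to 0.14, PIK3R1 passed as higher (0.35, adjusted p = 0.0270).

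The other catalytic subunits of PI3K changed in both directions. PIK3CD, the p110-delta gene best known from leukocytes, on chromosome 1 (9651732 to 9729114), had 1, 1, 8 and 5 counts in vehicle and 67, 83, 26 and 36 counts in treated replicates 1 to 4. That is 0.932 ± 0.723 against 11.6 ± 2.13 CPM (SD, n = 4), an 11.4-fold rise (log2 fold change 3.51, SE 0.35, adjusted p = 1.64e-13). The 3 leukocyte markers in the table, PTPRC, CD3E and LYZ, summed to 1.26 to 2.76 CPM in vehicle and 1.72 to 2.39 CPM in treated libraries. They had few counts, in total 23, 7 and 3 in vehicle and 25, 10 and 0 in treated libraries. The source of the PIK3CD rise was not tested, and CD14 was not analysed here. PIK3CB, the p110-beta gene, fell from 4.45 ± 0.292 to 2.03 ± 0.532 CPM (adjusted p = 0.00371). It had 11, 16, 19 and 19 counts in vehicle and 7, 13, 7 and 7 counts in treated replicates 1 to 4. Of the class II kinases, PIK3C2A rose from 50.6 ± 7.89 to 71.5 ± 6.45 CPM (adjusted p = 1.90e-05) and PIK3C2B from 3.26 ± 0.382 to 6.24 ± 1.85 CPM (adjusted p = 0.00956). PIK3CG, the p110-gamma gene, was named after its values were seen; it had at most 4 counts in any library and was under the count minimum.

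The regulatory subunits showed the same kind of split. PIK3R3, the p55-gamma gene on chromosome 1 (46040140 to 46133036), measured 55.6, 44.5, 57.0 and 52.2 CPM in vehicle and 152, 145, 151 and 152 CPM in treated replicates 1 to 4, a rise of 2.86-fold (log2 fold change 1.52, SE 0.08, adjusted p = 8.26e-24). PIK3R2, the p85-beta gene on chromosome 19 (18153118 to 18170540), measured 11.7, 12.7, 10.3 and 11.3 CPM in vehicle and 3.55, 3.41, 8.61 and 4.18 CPM in treated replicates 1 to 4. Its fall was -1.32 on the log2 scale (SE 0.26, adjusted p = 9.35e-06). PIK3IP1, which encodes a transmembrane inhibitor of PI3K, rose 8.89-fold from 0.591 ± 0.151 to 5.72 ± 0.758 CPM (adjusted p = 5.60e-09). It had only 1, 2, 3 and 3 counts in vehicle replicates 1 to 4, and the 95% interval of the fold ran from 4.85 to 16.3. PIK3R2 shares 3947 and PIK3R3 1292 exon bases with another annotated gene on the same strand, so their counts are uncertain. Neither of those other genes was among the counted symbols, and the effect of the overlap was not tested. PIK3R4, the regulatory subunit gene of class III PI3K, had a log2 fold change of 0.05 (adjusted p = 0.817). PIK3R2 held the miR-449a word 2 times and PIK3CB once, in its 8-base form. These matches are shown beside that of RPTOR, a subunit gene of mTOR complex 1 that held the same word and rose. Among all tested genes holding this word 27.8% were higher and 41.2% lower, and its part in these changes was not tested.

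PIK3R2, chr19:18170305-18170311, plus strand: ccaagttgcgaCACTGCCcacggcccctc

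PIK3R2, chr19:18170456-18170462, plus strand: cttggccaccaCACTGCCtgccccacgag

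PIK3CB, chr3:138653503-138653509, minus strand: agaatggtgaaCACTGCCaggaagaaatg

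RPTOR, chr17:80965330-80965336, plus strand: caggcaagaggCACTGCCgggtcccggac

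The makeup of the PI3K subunits was described as shares of CPM per kilobase of merged exons, since levels of different genes compare only per length. PIK3CA made up 79.0% ± 4.31 (SD, n = 4) of the class I catalytic transcripts in vehicle and 70.8% ± 3.88 in treated cells. The PIK3CD share went from 3.57% ± 2.66 to 24.6% ± 4.61 and the PIK3CB share from 14.0% ± 1.22 to 3.45% ± 0.870. Among the regulatory genes the PIK3R1 share went from 17.8% ± 2.42 to 10.3% ± 1.41, with PIK3R3 at 60.4% ± 3.90 in vehicle and 85.2% ± 2.98 in treated cells. The groups did not overlap for any of these 5 shares, beside 58.9% of all tested genes by level. For PIK3CA the gap was narrow, with 76.4% the lowest in vehicle and 74.9% the highest in treated libraries. Shares within a family depend on each other, and the PIK3CA level rose while its share fell. PIK3CG, under the count minimum, is in the catalytic total at 3.44% ± 2.87 in vehicle and 1.15% ± 0.525 in treated cells. The PIK3R1 level overlapped between the groups, while its share was smaller in every treated library.

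**Figure D2:**
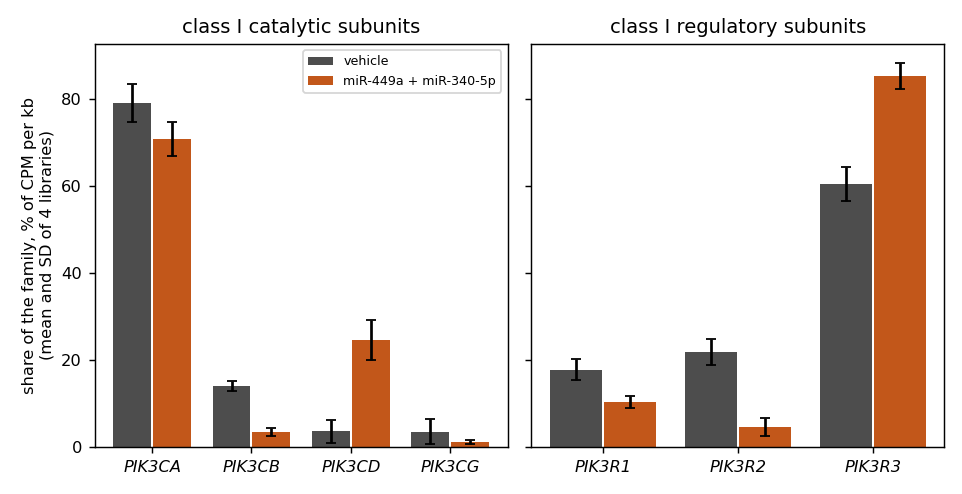
Share of each gene in its family (y axis, percent of the family's CPM per kilobase of merged exons, from 0) for the class I catalytic and class I regulatory PI3K subunits; bars are means of 4 libraries and error bars SD, vehicle grey and treated orange. PIK3CD went from 3.57% to 24.6% of its family and PIK3R1 from 17.8% to 10.3% of its own.

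AKT1 and AKT2 encode serine/threonine kinases that carry the PI3K signal; AKT2 is the isoform best known for insulin responses. AKT2, on chromosome 19 (40230317 to 40285536, minus strand), measured 163, 158, 151 and 172 CPM in vehicle and 106, 116, 107 and 85.9 CPM in treated replicates 1 to 4. The groups stood apart, and the fall was 1.53-fold (log2 fold change -0.62, SE 0.08, adjusted p = 3.19e-10). AKT1, on chromosome 14 (104769349 to 104795751, minus strand), measured 66.9, 64.7, 66.7 and 63.0 CPM in vehicle and 62.7, 65.7, 43.0 and 54.4 CPM in treated replicates 1 to 4. Treated replicates 1, 3 and 4 were below all vehicle libraries, replicate 1 only just, while replicate 2 was within their range. The log2 fold change of AKT1 was -0.18 with an interval from -0.38 to 0.02 (adjusted p = 0.109).

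The AKT1 call depended on the setting. It passed as lower after correction for transcript GC content and length (-0.35, adjusted p = 0.00209) and without treated replicate 2 (-0.26, adjusted p = 0.0366). The longest AKT1 transcript has 62.1% GC, against 34.8% for PIK3CA and 58.3% for AKT2, which stayed at -0.62 with that correction. The cause of the AKT1 shift was not tested.

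MTOR encodes the kinase of both mTOR complexes and lies on chromosome 1 (11106535 to 11262507, minus strand). It measured 33.9, 28.5, 40.0 and 35.7 CPM in vehicle and 34.6, 34.5, 33.7 and 34.4 CPM in treated replicates 1 to 4. All treated values lay inside the vehicle range. The log2 fold change was -0.01 with an interval from -0.25 to 0.23, which is a treated to vehicle ratio between 0.839 and 1.17 (adjusted p = 0.933). The annotated antisense genes of MTOR (220 shared exon bases) and AKT1 (663) were not analysed here.

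RICTOR encodes the scaffold that defines mTOR complex 2 and lies on chromosome 5 (38937919 to 39074408, minus strand). It measured 17.2, 25.1, 21.3 and 19.1 CPM in vehicle and 33.2, 36.0, 33.1 and 36.0 CPM in treated replicates 1 to 4. The lowest treated library was above the highest vehicle library, replicate 2, and the rise was 1.65-fold (log2 fold change 0.72, SE 0.13, adjusted p = 3.48e-06). OSMR shares 229 exon bases with RICTOR on the opposite strand and rose by 1.18 on the log2 scale from 8.03 CPM; its part in the RICTOR value was not tested.

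Among the other subunits of the mTOR complexes, RPTOR, which encodes the scaffold of mTOR complex 1, rose by 0.97 on the log2 scale (SE 0.18, adjusted p = 4.14e-06), from 9.71 ± 1.97 to 19.6 ± 2.07 CPM. MAPKAP1, the gene of the complex 2 subunit SIN1, fell from 86.6 ± 3.86 to 52.1 ± 1.10 CPM (adjusted p = 1.98e-10). MLST8, a subunit of both complexes, fell by 0.68 and AKT1S1, which encodes the complex 1 inhibitor PRAS40, by 0.40 on the log2 scale, with overlapping groups. The AKT1S1 call was lost when treated replicate 4 (adjusted p = 0.0717) or vehicle replicate 2 (0.05004) was left out, and under scaling by library size alone (0.130). Of 8 tested subunits 2 were higher, 3 lower and 3 did not pass, beside 33.4% higher and 34% lower over all tested genes.

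TSC1 encodes hamartin, the scaffold of the TSC complex, and lies on chromosome 9 (132891348 to 132946874, minus strand). It measured 78.2, 70.2, 66.03 and 66.1 CPM in vehicle and 215, 191, 233 and 215 CPM in treated replicates 1 to 4. The groups were far apart and the rise was 3.06-fold (log2 fold change 1.61, SE 0.08, adjusted p = 6.75e-27). It was rank 673 from the top among 12366 log2 fold changes. GFI1B shares 349 exon bases with TSC1 on the opposite strand and was not analysed here.

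TSC2 encodes tuberin, the GTPase-activating subunit of the same complex, and lies on chromosome 16 (2047465 to 2089487, plus strand). It measured 26.4, 30.3, 27.4 and 29.9 CPM in vehicle and 31.8, 39.9, 42.7 and 36.0 CPM in treated replicates 1 to 4. The groups did not overlap, and the rise was 1.30-fold (log2 fold change 0.38, SE 0.12, adjusted p = 0.00544). PKD1 and NTHL1 share 778 and 402 exon bases with TSC2 on the opposite strand. PKD1 rose by 0.75 and NTHL1 fell by 0.66 on the log2 scale, and their part in the TSC2 value was not tested.

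The partners of these genes in the TSC branch moved in opposite directions. TBC1D7, the third subunit of the complex, rose by 0.52 on the log2 scale (adjusted p = 0.0357), a call lost with DESeq2 (0.0607). It was also lost when vehicle replicate 2 (0.191) or 4 (0.0547), or treated replicate 1 (0.0556), 2 (0.0888) or 4 (0.0516), was left out. RHEB, the GTPase that the complex inactivates, fell 1.70-fold from 38.6 ± 6.53 to 22.8 ± 2.28 CPM (adjusted p = 1.02e-06). Its relative RHEBL1 fell 2.22-fold from 11.02 ± 0.722 to 4.74 ± 1.07 CPM. All 5 tested genes of this group passed, 3 as higher and 2 as lower, beside 67.3% of all tested genes.

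**Figure D3:**
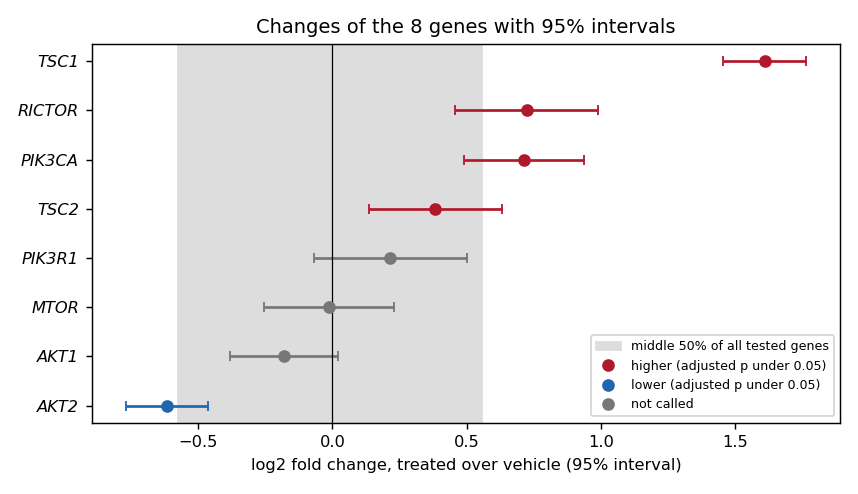
Log2 fold change of the 8 genes in treated over vehicle cells (x axis) with 95% intervals from the fit over 4 libraries a group; red passed as higher, blue as lower, grey did not pass, and the grey band is the middle 50% of all tested genes. TSC1 at 1.61 stands apart from RICTOR (0.72) and PIK3CA (0.71), and AKT2 is at -0.62.

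Ratios of partner genes within a library need no scaling between libraries, and 6 were computed from counts with 0.5 added, of which 5 are given. With 4 libraries against 4, the smallest two-sided p of an exact permutation test is 0.0286, and the p adjusted over the 6 ratios could not pass 0.05 unless more than 3 ratios reached that value. TSC1 had 2.45 counts per TSC2 count in vehicle and 5.68 in treated libraries (geometric means), a log2 difference of 1.21 without overlap (exact permutation p = 0.0286, adjusted 0.0571). Within the groups it ran from 2.21 to 2.95 and from 4.77 to 6.75. In every treated library TSC1 thus outnumbered TSC2 by more than in any vehicle library.

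RICTOR per MTOR went from 0.599 to 1.01, also without overlap (log2 difference 0.75, exact permutation p = 0.0286, adjusted 0.0571). In vehicle it was 0.882 in replicate 2 and 0.509 to 0.537 in the others. PIK3R1 per PIK3CA went from 0.734 to 0.522 (log2 difference -0.49, exact permutation p = 0.0286, adjusted 0.0571). AKT2 per AKT1 was 2.46 and 1.85, with treated replicate 3 at 2.49 inside the vehicle range (exact permutation p = 0.114, adjusted 0.171). RPTOR per RICTOR was 0.471 and 0.568 (p = 0.229, adjusted 0.274, exact permutation), and the groups overlapped.

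**Figure D4:**
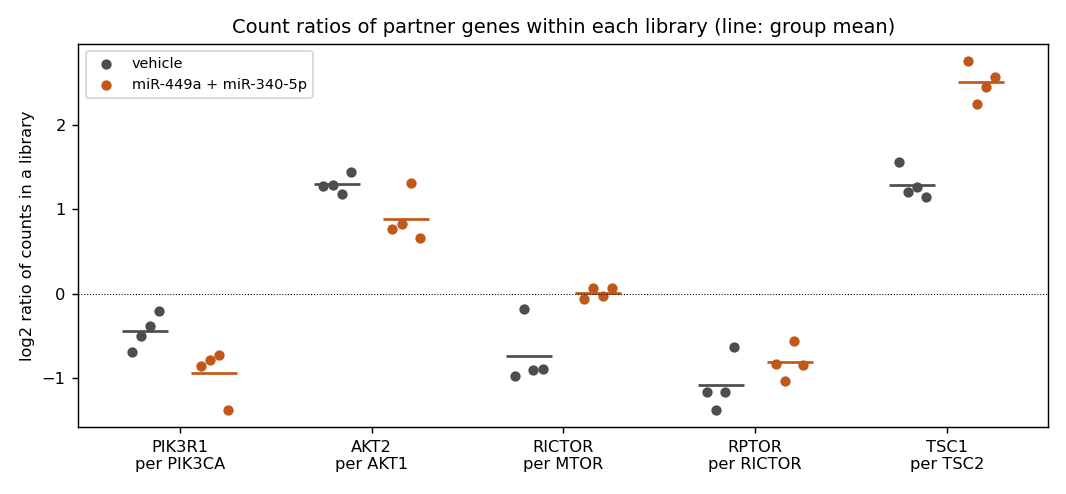
Log2 ratio of counts of 2 partner genes (y axis) in each vehicle (grey) and treated (orange) library, for 5 pairs; lines are group means and 0 marks equal counts. TSC1 per TSC2 shows the widest gap (log2 difference 1.21), and the groups overlap for AKT2 per AKT1 and RPTOR per RICTOR.

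The order of the 8 levels was read per kilobase of merged exons. In vehicle it was AKT2 (10.7 CPM per kilobase), AKT1 (5.86), TSC1 (3.98), PIK3CA (3.19), MTOR (2.85), PIK3R1 (2.08), RICTOR (1.53) and TSC2 (1.45). PIK3CA overlapped with MTOR, PIK3R1 with RICTOR and RICTOR with TSC2 in their libraries, so these neighbours had no clear order. In treated cells TSC1 was first at 12.1 CPM per kilobase, above AKT2 (6.91), PIK3CA (5.29) and AKT1 (5.06), which overlapped in turn. MTOR (2.83), RICTOR (2.55), PIK3R1 (2.45) and TSC2 (1.92) followed, with overlap from RICTOR down. Merged exons hold bases from rare transcripts, and the order changed with the longest transcript as length. AKT2 and TSC1 then overlapped at the top of the treated order, at 19.6 and 24.5. In vehicle TSC1 (8.05) and AKT1 (7.78) overlapped, so they had no clear order on that scale. TSC2 moved up to rank 4 by mean in both groups, but overlapped with MTOR in vehicle and with AKT1 and PIK3CA in treated libraries.

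Further genes of the pathway were read from 12 lists by role. Of 119 listed genes 105 were tested, of which 39 were higher, 26 lower and 40 did not pass, with a median log2 fold change of 0.16, beside 4125 higher, 4199 lower and a median of -0.00 over all 12366 tested genes. Scaled by library size alone, 49 were higher and 21 lower. That scaling shifted all tested genes too, to 4890 higher and 3453 lower with a median of 0.14. Without the 8 genes above, 35 of 97 were higher and 25 lower, with a median of 0.10. The counts of single lists below stand beside 33.4% higher and 34% lower over all tested genes.

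Receptors, adaptors and phosphatases stand at the entry of the pathway. Of 6 tested receptors and adaptors 3 were higher and none lower. IRS2, an insulin receptor substrate, rose 5.25-fold from 15.8 ± 2.70 to 83.7 ± 5.79 CPM, the insulin receptor gene INSR 2.82-fold and the docking protein gene GAB2 2.77-fold. IGF1R, the IGF receptor gene, had a log2 fold change of -0.19 (adjusted p = 0.146); corrected for GC content and length, it passed as lower (-0.38, adjusted p = 0.00296). Of 7 tested phosphatases 4 were lower. PHLPP1, a phosphatase of AKT, fell 1.93-fold and INPPL1, a 5-phosphatase gene, by 0.49 on the log2 scale. INPP5K was at -0.77 (adjusted p = 0.0298), a call lost with DESeq2 (0.0651), without a filter on low counts (0.0589), with the replicate number as a block (0.0580) and under scaling by library size alone (0.0750). It was also lost when vehicle replicate 4 (0.151) or treated replicate 1 (0.0689) or 2 (0.0786) was left out.

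Among kinases beside AKT, SGK1, which shares many AKT substrates, rose 5.19-fold from 5.34 ± 1.41 to 27.8 ± 7.63 CPM. PDPK1, the gene of the AKT-activating kinase PDK1, had a log2 fold change of 0.18 (adjusted p = 0.190); scaled by library size alone, it passed as higher (0.32, adjusted p = 0.0228). Of the stress and energy inputs to the TSC complex 4 of 8 tested genes were higher and 1 lower. DDIT4, which encodes the mTOR complex 1 inhibitor REDD1, rose 3.55-fold from 35.2 ± 2.44 to 124 ± 10.3 CPM, and the AMPK subunit genes PRKAG2 and PRKAA1 rose by 1.53 and 0.85 on the log2 scale. STK11, which encodes the kinase LKB1 upstream of AMPK, rose by 0.47.

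The amino acid branch brings mTOR complex 1 to the lysosome. Of 13 tested genes of this branch 6 were higher and 1 lower (median 0.34). They are the Rag and Ragulator genes together with SLC38A9, FLCN, FNIP1 and FNIP2. FLCN, which encodes folliculin, rose by 1.59 on the log2 scale from 15.9 ± 1.28 to 48.6 ± 5.12 CPM, its partner gene FNIP1 by 1.01, LAMTOR2 by 0.93 and LAMTOR5 by 0.57. Of 16 tested genes of GATOR, KICSTOR and the amino acid sensors 3 were higher and 3 lower (median 0.06). The leucine sensor gene SESN2 rose from 14.8 ± 2.50 to 125 ± 11.4 CPM. C7orf60, which encodes the sensor SAMTOR, rose by 1.21. NPRL3, a GATOR1 subunit gene, fell 2.98-fold and SEH1L, a GATOR2 and nuclear pore gene, 2.76-fold.

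Of 16 tested direct substrates and outputs 3 were higher and 7 lower (median -0.20). RPS6, the ribosomal protein phosphorylated by S6 kinase, fell 2.07-fold from 1599 ± 57.0 to 771 ± 42.5 CPM, a value uncertain because of its processed pseudogenes. EEF2K, the elongation factor 2 kinase gene, fell 3.05-fold, and EIF4EBP2, the gene of a translation repressor, by 0.78 on the log2 scale, whereas ULK1, the autophagy-initiating kinase gene, rose 1.97-fold. Of 16 tested genes reported as FOXO-responsive 10 were higher and 2 lower (median 0.48), beside 33.4% higher and 34% lower over all tested genes. The 2 lower genes were ERBB3 and CCNG2, and 4 genes did not pass. Of the FOXO genes in the substrate list, FOXO1 fell from 10.3 to 5.09 CPM and FOXO3 from 51.5 to 36.4 CPM. FOXO4 did not pass, and CCNG2 and these FOXO genes were named after their values were seen. The part of FOXO in the changes of the FOXO-responsive list was not tested. That list includes PIK3CA and shares INSR, IRS2, PIK3IP1, SESN1 and SESN3 with the other lists. Beside those, the autophagy gene GABARAPL1 rose 3.29-fold from 109 ± 5.62 to 360 ± 8.25 CPM and the ubiquitin ligase gene FBXO32 by 1.63 on the log2 scale, while the receptor gene ERBB3 fell 3.86-fold.

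**Figure D5:**
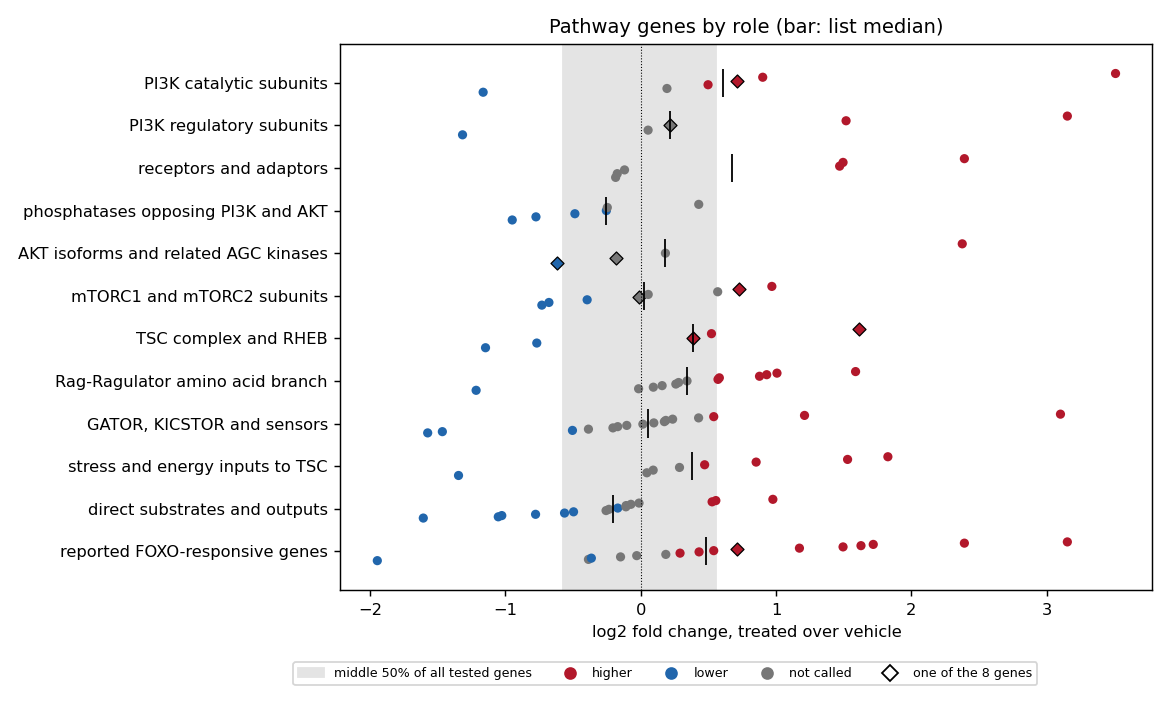
Log2 fold change (x axis) of tested pathway genes (2 not drawn) in treated over vehicle cells, by role (y axis); red passed as higher, blue as lower, grey did not pass, diamonds are the 8 genes, short bars are medians over all tested genes of a list and the grey band is the middle 50% of all tested genes. PIK3CD (3.51), PIK3IP1 (3.15) and SESN2 (3.10) lie far right, and the outputs have a median of -0.20.

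The seed words were also counted over the pathway lists. Of 104 tested pathway genes with a 3′ UTR, 22 held the miR-449a word, of which 9 were higher and 8 lower (median -0.04), and of the 82 without it 29 were higher and 18 lower (median 0.18). Over all 10817 tested genes the medians were -0.13 with the word and 0.05 without it. The miR-340-5p word was in 23 pathway genes, of which 10 were higher and 3 lower (median 0.19), and of the 81 without it 28 were higher and 23 lower (median 0.09). Over all genes the medians were 0.03 with this word and 0.02 without it. Among the named genes RPTOR, ULK1, INSR, PIK3IP1 and SGK1 held the miR-449a word and rose, and AKT2, PIK3R2, PIK3CB, EEF2K, EIF4EBP2, SEH1L, MLST8 and INPP5K held it and fell. No difference between these medians was tested.

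The genes whose levels over the 8 libraries were most like those of TSC1, by Pearson's correlation of log2 CPM among 10753 genes averaging at least 5 CPM, were PCK2, CAMK1D and PHF20L1, each with r = 0.998. Both groups enter that value, so it mainly reflects the difference between them. PCK2, the mitochondrial PEP carboxykinase gene, had means of 4.01 (vehicle) and 18.7 (treated) CPM, CAMK1D, a calmodulin-dependent kinase gene, of 16.3 and 63.0 CPM, and PHF20L1, which encodes a PHD finger protein, of 215 and 340 CPM.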

How the data were processed

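RNA of 8 RD18 samples was made into libraries with the TruSeq Stranded mRNA kit and read on a HiSeq4000, per the labels' protocols. The authors deposited 1 table of raw counts, whole numbers for each gene symbol and library. Build GRCh38 and the tools HTSeq 0.5.3p3, TopHat2 2.0.13, DESeq2 and SAMtools 0.1.19.24 stand in the submitters' processing notes, without their roles. Which annotation the counting used, and how it treated strand, is not given in the sources used here. Columns were matched to samples by the library code in each description.

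Genes kept by filterByExpr (minimum count 10, minimum total 15) numbered 12366. After TMM scaling, edgeR 4.0.16 (R 4.3.3) fitted a robust quasi-likelihood model with no term but the group, tested two-sided by glmQLFTest. Benjamini-Hochberg adjustment ran over all tested genes with a threshold of 0.05. The script was first tested on simulated data. Standard errors are the absolute log2 fold change over the square root of F. Alternatives were DESeq2 1.42.0, limma-voom (limma 3.58.1), other scalings, filters and thresholds, a replicate block, a GC content and length correction (splines with 5 degrees of freedom, 94.9% of tested genes) and leaving out each library. Symbols were matched to GENCODE 29 (17606 by name, 520 by another symbol, 4682 unmatched).

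The 8 genes and all lists were chosen with earlier results of these data known. Named are the 8 genes, from each list up to 4 others with the smallest adjusted p and a mean of at least 1 CPM, a few fixed partners (PIK3CB, PIK3R2, RPTOR and RHEB), the genes of the 6 ratios, and the 3 genes most like the member of largest change. A few results that the rule would name are not reported here. Depth limits precision most where a gene has few counts, as for PIK3CD and PIK3IP1 in vehicle and PIK3CB in treated cells.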

Additional observations from a re-analysis of the deposited data

Results flagged for a closer look

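In 9 of 112 groups of 4 values examined (the levels of the named genes and 5 ratios), 1 library stood far from the other 3 by Dixon's ratio, where chance gives about 1 in 20. Among the ratios, RICTOR per MTOR in vehicle was -0.18 on the log2 scale in replicate 2, against -0.97 to -0.90 in the others. In treated cells, MLST8 was 17.6 CPM and PIK3R2 8.61 CPM in replicate 3, above the others, and PRKAA1 was lowest there at 28.6 CPM. PIK3CB was lowest in treated replicate 1 at 1.24 CPM. FNIP1 and PIK3R3 were lowest in treated replicate 2 at 44.0 and 144.7 CPM. In vehicle, EIF4EBP2 was highest in replicate 1 at 139.3 CPM and PIK3C2A in replicate 4 at 62.3 CPM.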

How the results depend on the processing

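Across 11 alternatives other than leaving out a library, PIK3CA, RICTOR, TSC1, TSC2 and AKT2 kept their direction and stayed past the threshold; their log2 fold changes ran from 0.64 to 0.85, 0.63 to 0.86, 1.39 to 1.75, 0.30 to 0.52 and -0.63 to -0.48. Leaving out each library gave 0.68 to 0.76, 0.66 to 0.82, 1.57 to 1.67, 0.33 to 0.47 and -0.67 to -0.54, with 4 genes always called higher and 1 to 2 lower. With the GC content and length correction 2 were called lower, the second being AKT1 (-0.35); AKT1 ran from -0.26 to -0.082 without single libraries, passing without treated replicate 2. PIK3R1 passed with library size only (0.35). MTOR changed sign with upper-quartile scaling (0.038), library size only (0.12), no low-count filter (0.00420) and the replicate block (0.00684), and ran from -0.11 to 0.070 without single libraries, never past the threshold; PIK3R4 ran from -0.081 to 0.19. The cause of these shifts was not tested. Same-numbered libraries correlated by 0.013 to 0.056 in their deviations from group means, all under 0.1, so the numbers were not taken to pair the samples, although 3 of 4 correlated best with their own number; with the replicate block 40 pathway genes were called higher and 25 lower. Without single libraries the log2 differences of the ratios kept their sign and ran from 1.13 to 1.30 (TSC1 per TSC2), 0.67 to 0.93 (RICTOR per MTOR), -0.58 to -0.35 (PIK3R1 per PIK3CA), -0.55 to -0.33 (AKT2 per AKT1) and 0.17 to 0.42 (RPTOR per RICTOR); exact permutation tests of 3 against 4 libraries cannot go below p = 0.0571, nor those of 4 pairs below 0.125. Of the lists, phosphatases called lower ran from 2 to 5 over these settings.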
